A study of Mus musculus with 22 samples.

Results

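The 10 liver tumours of this study, all from mice, were divided here by their level of Vegfa, the gene of vascular endothelial growth factor A. In 3 of the 10 tumours the averaged Vegfa value was above 1, on a log2 scale against a reference RNA, and these are called Vegfa-high. The other 7 tumours are called Vegfa-low. The groups were therefore set by a measured value of Vegfa and not by the labels, and Vegfa itself is described without a test. All 3 Vegfa-high tumours (tumours 1, 5 and 7) were hepatocellular carcinomas of mice with a biallelic Mdr2 knockout (Mdr2-/-, labelled Mdr2-KO). The Vegfa-low tumours were 1 further Mdr2-KO carcinoma (tumour 2) and all 6 carcinomas labelled IkB-SR (tumours 3, 4, 6, 8, 9 and 10), which by their labels carried an IkB super-repressor transgene in addition to Mdr2-/-. The Nfkbia value of the tumour labelled IkB-SR 8 does not bear out that label, as given further on. Mdr2, now Abcb4, encodes the phospholipid transporter of the bile canaliculus, and mice without it develop cholestatic hepatitis and later liver cancer. The super-repressor is an IkB protein that resists degradation and so holds NF-kB in the cytoplasm. In these mice it was under a tetracycline-regulated promoter, with the transactivator driven by a promoter that the labels call hepatocyte-specific. All tumours thus lacked Mdr2, and by the labels Vegfa level and genotype cannot be told apart except through Mdr2-KO tumour 2, the only Vegfa-low tumour labelled as without the transgene. Each tumour came from a separate mouse of mixed genetic background, with sex labelled unknown and no age in the labels used here. One wild-type liver is given as a value only.

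VEGF-A is secreted by parenchymal and tumour cells and acts on endothelial cells through the receptor tyrosine kinases Flt1 (VEGFR1) and Kdr (VEGFR2), with the neuropilins as coreceptors. Its gene is a textbook target of the hypoxia-inducible factors. In liver, hepatocytes are a main source of VEGF-A, and the fenestrated sinusoidal endothelium is the tissue that responds to it. Because a gain or loss of a chromosome stretch alters many adjacent genes together, the genes that lie next to Vegfa on mouse chromosome 17 were examined apart from genes elsewhere. Gene starts and distances are those of RefSeq on GRCm38.p6, counted between the lower coordinates of each gene and of Vegfa.

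The promoter stretches of 3 genes are shown: Vegfa, which defined the groups, and 2 of the 3 neighbouring genes that passed the test described further on. They are RefSeq sequences of GRCm38.p6, end at the base before the annotated start, and run 5′ to 3′ on the strand of the gene. Capitals mark the motifs searched for on both strands, which were GGGCGG (the Sp1 box), the palindromic NRF1 site (as the pair of long capital runs in the Xpo5 window spells it), ACTTCCGG (an ETS core) and ACGTG (the core of the hypoxia response element). The matches did not overlap each other.
Vegfa, minus strand, chr17:46032378-46032627: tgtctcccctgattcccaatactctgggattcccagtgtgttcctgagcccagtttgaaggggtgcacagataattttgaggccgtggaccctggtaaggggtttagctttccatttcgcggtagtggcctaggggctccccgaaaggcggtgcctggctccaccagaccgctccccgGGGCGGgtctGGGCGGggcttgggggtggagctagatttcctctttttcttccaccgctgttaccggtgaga
Xpo5, plus strand, chr17:46202642-46202810: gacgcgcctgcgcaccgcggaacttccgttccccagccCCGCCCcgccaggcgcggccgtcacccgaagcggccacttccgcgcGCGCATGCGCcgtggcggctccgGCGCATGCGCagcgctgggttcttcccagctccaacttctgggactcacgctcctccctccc
Mrps18a, plus strand, chr17:46110754-46111003: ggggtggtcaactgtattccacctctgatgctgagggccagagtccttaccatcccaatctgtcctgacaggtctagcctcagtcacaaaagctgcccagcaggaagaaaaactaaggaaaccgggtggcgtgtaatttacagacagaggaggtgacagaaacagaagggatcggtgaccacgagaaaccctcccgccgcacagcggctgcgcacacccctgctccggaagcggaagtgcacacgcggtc
The Vegfa window held 2 Sp1 boxes, 72 and 62 bases before the start. The Xpo5 window, which is the stretch between the divergent starts of Polh and Xpo5, held 1 Sp1 box and 2 NRF1 sites, 85 and 62 bases before the start. The Mrps18a window held none of the 4 motifs, and ACGTG was in none of the 3 windows. Over the 32851 RefSeq windows of 250 bases before a start, 32.7% held GGGCGG, 0.782% held the NRF1 site, 2.88% held ACTTCCGG and 16.6% held ACGTG. The Xpo5 window is shorter, with 169 bases. A match is a description of letters, and no motif was shared by the 3 windows.

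The Vegfa value was 1.42 in Mdr2-KO tumour 1, 1.34 in tumour 5 and 1.61 in tumour 7. Among the Vegfa-low tumours it was highest in Mdr2-KO tumour 2, at -0.15, and lay between -1.10 and -0.50 in the 6 IkB-SR tumours. The values nearest to the threshold of 1 were therefore 1.34 inside and -0.15 outside, and no tumour lay between them. All 3 Vegfa spots of the array separated the tumours in the same way, with a lowest single-spot value of 1.09 in the Vegfa-high tumours and a highest of 0.09 in the Vegfa-low tumours. The means were 1.45 ± 0.14 (SD, n = 3) and -0.80 ± 0.35 (SD, n = 7), which is 4.76-fold on a linear scale. Wild-type liver had -0.35.

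**Figure D1:**
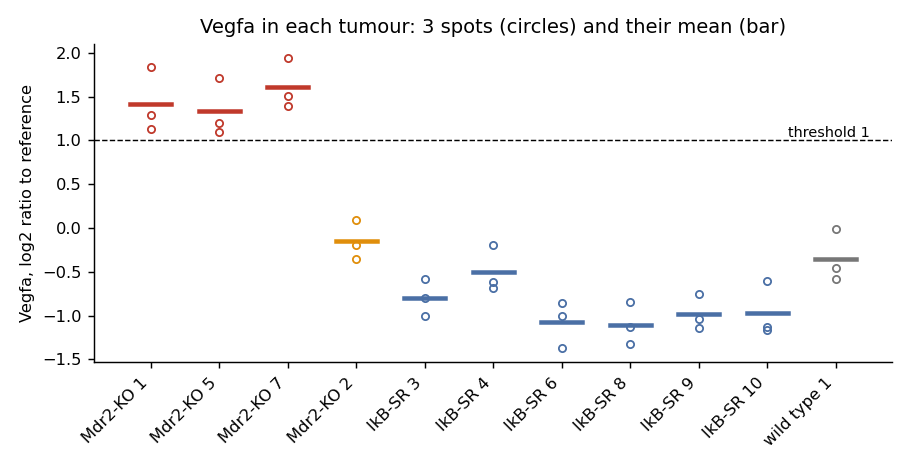
Vegfa log2 ratio to the reference RNA (vertical axis) in each of the 10 tumours and in wild-type liver (horizontal axis), with circles for the 3 spots and a bar for their mean. The 3 Vegfa-high tumours lie between 1.34 and 1.61, and the highest Vegfa-low tumour, Mdr2-KO 2, lies at -0.15.

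The quality of the arrays and the labels bears on what follows. The 2 dye-swapped arrays of a tumour correlated at r = 0.861 to 0.988 across spots, and the tumours fell into a set with close dye swaps (Vegfa-high tumour 1 with Vegfa-low tumours 2, 3, 4, 9 and 10) and a set with wider ones (Vegfa-high tumours 5 and 7 with Vegfa-low tumours 6 and 8), so that each set held both groups. Nfkbia, the gene of IkBa, was between 0.04 and 0.30 in the Vegfa-high tumours and at 0.12 in Mdr2-KO tumour 2, against 1.69 to 3.11 in 5 IkB-SR tumours. In the tumour labelled IkB-SR replicate 8 it was 0.003, which does not bear out its label. Abcb4 was measured at 2.26 to 3.47 in the Vegfa-high and 2.26 to 3.54 in the Vegfa-low tumours. Whether its spot lies inside the deleted part of the gene is unknown here, so this value checks nothing. Eif2s3y, a Y chromosome gene, was between -4.01 and -3.67 in the Vegfa-high tumours and at 1.63 to 2.46 in the tumours labelled IkB-SR 6, 8 and 9, with the other Vegfa-low tumours at -2.98 or lower. The extraction protocol in the labels names skin as the tissue, whereas albumin (Alb) was at 5.78 to 6.00 in the Vegfa-high and 5.54 to 7.44 in the Vegfa-low tumours, far above the reference. Fewer cells of a type and less RNA per cell cannot be told apart in these bulk samples.

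Across the genome, 3 genes differed between Vegfa-high and Vegfa-low tumours, all 3 were higher in Vegfa-high tumours, and all 3 were immediate neighbours of Vegfa, within 0.19 Mb of it. They were Xpo5 (exportin-5, the nuclear export factor of pre-miRNAs), Mrps18a (a protein of the mitochondrial ribosome) and Gtpbp2 (a GTP-binding protein of the family that rescues stalled ribosomes). The test was limma with Benjamini-Hochberg adjustment over 18188 features, of which 11871 were named genes, at an adjusted p of 0.05. The 3 calls are 0.0165% of the features tested, and none was lower (0%). At an unadjusted p under 0.05 there were 1766 features, 7.79% of those tested being higher and 1.92% lower.

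Xpo5 was 0.07, 0.39 and 0.12 in Vegfa-high tumours 1, 5 and 7, and -2.10 to -1.45, with a median of -1.67, in the Vegfa-low tumours. Mdr2-KO tumour 2 was the highest of the low ones, and the groups did not overlap. Xpo5 rose by 1.92 ± 0.14 (log2 difference ± SE, 3.79-fold, limma adjusted p = 0.00195), and its 2 spots gave differences of 1.90 and 1.94. Polh, the translesion DNA polymerase whose start lies 170 bases from that of Xpo5 on the opposite strand, differed by 0.27 with an adjusted p of 0.187. The measured differences of this divergent pair were thus of very unequal size, although all 3 Vegfa-high tumours were also above all Vegfa-low tumours for Polh. Polh values stayed between -0.30 and 0.18 in all tumours, and a ratio does not give the signal strength of its spot.

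Mrps18a, the nearest measured gene to Vegfa at 0.09 Mb, was 1.72, 1.78 and 1.21 in Vegfa-high tumours 1, 5 and 7. In the Vegfa-low tumours it ranged from -0.42 to 0.27, with a median of -0.15. The groups did not overlap, and Mrps18a rose by 1.64 ± 0.17 (SE, limma adjusted p = 0.0244). Gtpbp2 was 0.60, 1.24 and 0.97 in the Vegfa-high tumours and -1.32 to -0.45, median -1.01, in the Vegfa-low tumours. It rose by 1.89 ± 0.21 (SE, limma adjusted p = 0.0319), again without overlap.

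The dependence of these calls on single tumours was uneven. Xpo5 passed the test in 20 of 21 analyses, the exception being the analysis of Cy5-labelled tumour arrays only, where its adjusted p was 0.104 with a difference of 1.70. Over the 21 analyses its adjusted p ran from 0.000247 to 0.104, that of Mrps18a from 0.00161 to 0.215 and that of Gtpbp2 from 0.00161 to 0.215. With Cy5 arrays only Mrps18a and Gtpbp2 also missed, at 0.0569 and 0.166. They missed the threshold without Vegfa-high tumour 5 and without any one of the IkB-SR tumours 3, 6, 8 or 10, and Gtpbp2 also without Vegfa-high tumour 7. The differences themselves stayed between 1.52 and 1.82 for Mrps18a and between 1.65 and 2.13 for Gtpbp2. Without the 3 tumours with high Eif2s3y, an analysis chosen after seeing the data, Xpo5 alone passed.

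Beside the 3 called genes, 17 others complete the 20 measured genes nearest to Vegfa, and none of the 17 passed the test. Most passed under some other processing. With array weights all of the 17 passed except Dlk2, Ttbk1 and Nfkbie, where 333 of 18188 features passed. Mad2l1bp, Polr1c and Tjap1 passed with quantile normalization, with Cul9 also with Cy3 arrays, and with Cul9 and Abcc10 with centred arrays. Polr1c passed with the set of dye swaps as a block. Tmem63b, Slc35b2, Mrpl14, Zfp318, Cul9 and Tjap1 passed without Vegfa-high tumour 1, and Abcc10 without tumour 7. Polr1c and Tjap1 passed without Mdr2-KO tumour 2, and Tjap1 without IkB-SR 4. None of the 17 passed with Cy5 arrays. Mad2l1bp (a partner of the spindle checkpoint protein Mad2), Polr1c (a subunit shared by RNA polymerases I and III) and Tjap1 (a tight junction-associated protein) had differences of 1.66, 1.90 and 1.62, each with an adjusted p of 0.0609. Abcc10 (a drug-exporting ABC transporter) and Cul9 (a cullin) had 0.80 and 1.15, each with an adjusted p of 0.0653. In all 5 the Vegfa-high tumours were above all Vegfa-low tumours. On the other side of Vegfa, Tmem63b (an osmosensitive cation channel) had the largest difference, 1.55, with an SE of 0.64 and an adjusted p of 0.465. Its values were -0.30, 3.39 and 2.43 in Vegfa-high tumours 1, 5 and 7 and -0.19 to 1.00 in the Vegfa-low tumours, so tumours 5 and 7 were high and tumour 1 was the lowest of all 10. Slc35b2 (the Golgi transporter of the sulfate donor PAPS) split in the same way, with 2.41 and 1.77 in tumours 5 and 7 against -0.03 in tumour 1 and -0.14 to 0.31 in the Vegfa-low tumours. Slc29a1 (the nucleoside transporter ENT1), Mrpl14 (mitochondrial ribosome) and Hsp90ab1 (the constitutive cytosolic HSP90) were likewise above every Vegfa-low tumour in tumours 5 and 7 but not in tumour 1. Zfp318 (a zinc finger protein) and Srf (serum response factor) showed the same pattern, although the 2 Zfp318 spots disagreed, with differences of 0.21 and 1.41. Dlk2 (a Delta-like membrane protein) had a difference of 0.55 and Aars2 (mitochondrial alanyl-tRNA synthetase) one of 0.35. The remaining neighbours among the 20, Ttbk1 (a tau kinase) and Nfkbie (IkB epsilon, missing in tumour 5), had differences of 0.07 and -0.02. Their values were flat, at -0.45 to -0.10 for Ttbk1 and 0.07 to 0.18 for Nfkbie over the tumours measured. A ratio does not give the signal strength of a spot, so whether these genes shared the shift cannot be told from it.

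RefSeq lists 76 other protein-coding genes within 2 Mb of Vegfa, of which 65 had a spot and 54 were tested, and with 1 further named feature 55 were tested there. Of these 55, 49 had a difference above 0 (89.1%, against 58.2% of all named genes), and the median difference was 0.55. Of the 55, 10 were higher in all 3 Vegfa-high tumours than in all 7 Vegfa-low tumours, where 3.33% of all features tested were, and 0 were lower in all (1.12%). Between 2 and 5 Mb the median over 15 genes was 0.18, between 5 and 10 Mb it was 0.04 over 39 genes, and between 10 and 20 Mb it was 0.04 over 220 genes. The rest of chromosome 17 had a median of 0.04 over 221 genes and the other chromosomes one of 0.03 over 11250. The medians beyond 5 Mb on chromosome 17 were thus close to those of the other chromosomes. Against Mdr2-KO tumour 2 alone, which holds the genotype constant but is 1 tumour, the medians were 0.37 within 2 Mb, -0.01 between 2 and 5 Mb and 0.02 on other chromosomes.

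**Figure D2:**
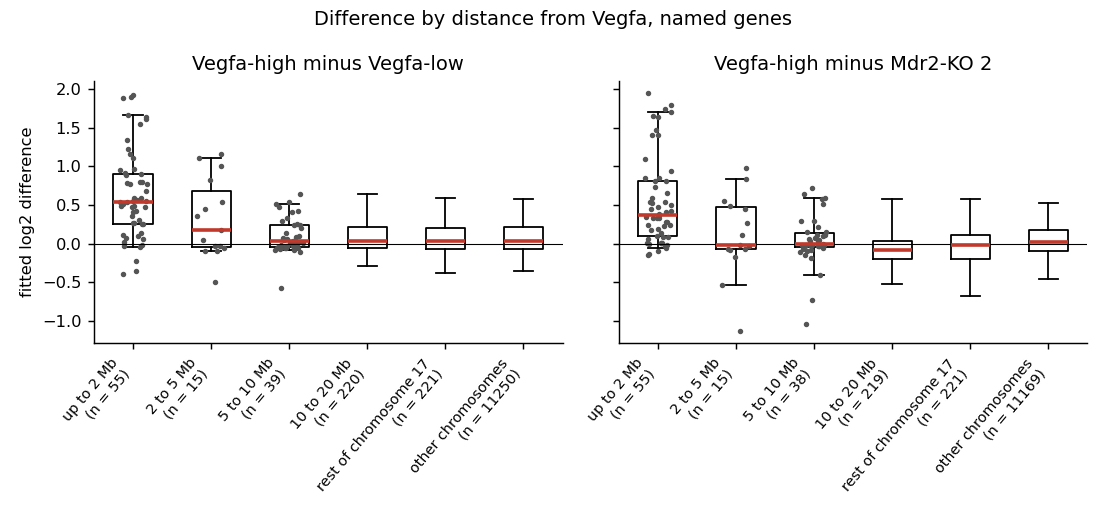
Fitted log2 differences of named genes (vertical axis) in bands of distance from Vegfa (horizontal axis), for Vegfa-high minus Vegfa-low tumours (left) and Vegfa-high minus Mdr2-KO tumour 2 (right). Boxes give quartiles and median, whiskers the 5th and 95th percentiles, and dots the single genes of the 3 nearest bands. The medians within 2 Mb are 0.55 and 0.37, and beyond 5 Mb they lie between -0.08 and 0.04.

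The Vegfa-high tumours did not share 1 stretch. A gene was counted as raised in a tumour when it was above all 7 Vegfa-low tumours and at least 0.5 above their median, and a run was followed outward from Vegfa until 3 measured genes in a row were not raised. As a background, 9.61%, 7.21% and 10.6% of all named genes met this rule in tumours 1, 5 and 7. Within 5 Mb of Vegfa 13 of 70 measured genes met it in tumour 1, 22 of 69 in tumour 5 and 47 of 70 in tumour 7.

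In tumour 1 the run was short and lay on 1 side of Vegfa only. It reached from Vegfa to Cul9 at 0.48 Mb, held 8 raised genes of 12 measured and had a median of 1.06 above the Vegfa-low median, with Polr1c the highest at 2.00. None of the 3 nearest measured genes on the other side (Mrpl14, Tmem63b and Slc29a1) was raised in this tumour. In tumour 5 the run went both ways, from B230354K17Rik at 0.58 Mb on the lower side to Srf at 0.53 Mb on the upper, with 18 of 21 genes raised and a median of 1.60. Tmem63b was its highest gene at 3.28 above the Vegfa-low median. In tumour 7 it spanned 4.38 Mb, from Adgrf5 to Tfeb, with 44 of 59 genes raised and a median of 1.36. Adgrf5, an adhesion receptor 2.66 Mb from Vegfa, was also raised in tumours 1 and 5, outside their runs, and its 2 spots disagreed, with differences of 1.68 and 0.64. It sets the lower end of the run in tumour 7, and the next raised genes inward in tumour 7 were Pla2g7 and Cyp39a1. Outside the runs 5 of 58, 4 of 48 and 3 of 11 genes within 5 Mb were raised in tumours 1, 5 and 7, among the latter Mocs1 (molybdenum cofactor synthesis).

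**Figure D3:**
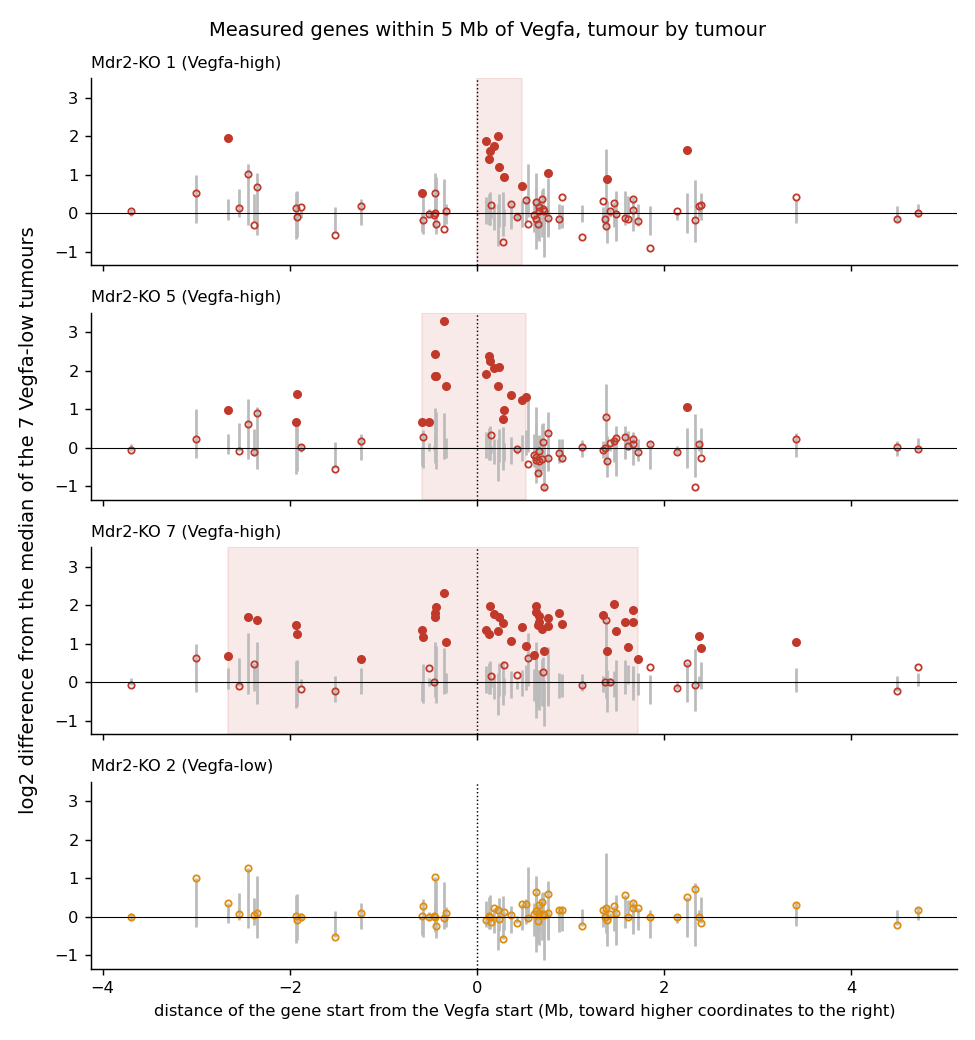
Log2 difference of each measured gene from the median of the 7 Vegfa-low tumours (vertical axis) against the distance of its start from the Vegfa start in Mb (horizontal axis), in the 3 Vegfa-high tumours and in Mdr2-KO tumour 2. Grey lines span the 7 Vegfa-low tumours, filled circles are genes counted as raised, and the shaded stretch is the run around Vegfa. The run reaches 0.48 Mb on 1 side in tumour 1, about 0.5 to 0.6 Mb on both sides in tumour 5 and 4.38 Mb in all in tumour 7. Mdr2-KO tumour 2 is one of the Vegfa-low tumours that set the limit, so no gene can count as raised in it.

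Of the 70 genes within 5 Mb, 9 were raised in all 3 Vegfa-high tumours, where 1.5% of all named genes with values in all 3 were. Of these 9, 7 lie on the upper side between 0.09 and 0.48 Mb from Vegfa, namely Mrps18a, Mad2l1bp, Gtpbp2, Xpo5, Polr1c, Tjap1 and Cul9, and the other two are B230354K17Rik and Adgrf5. A further 14 genes were raised in exactly 2 of the tumours, 10 of them in tumours 5 and 7. There were 26 raised in tumour 7 only, 1 in tumour 5 only and 0 in tumour 1 only. The median over all 70 neighbours was 0.10 above the Vegfa-low median in tumour 1, 0.17 in tumour 5 and 1.18 in tumour 7, against -0.07 to 0.09 in the Vegfa-low tumours themselves. The median neighbourhood difference of 0.52 over 5 Mb was 0.11 without tumour 7. Within the set of close dye swaps, which holds tumour 1, the median was 0.07, and within the set of wider ones, which holds tumours 5 and 7, it was 0.75. For Xpo5 the 2 sets gave 1.71 and 2.21, for Mrps18a 1.81 and 1.53, and for Gtpbp2 1.43 and 2.36.

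No gene outside the 5 Mb neighbourhood passed the test among the 11801 named genes tested there. Those described next are named only for small p-values among genes with a log2 difference of at least 1 in either direction. All 12 genes selected on the higher side were above every Vegfa-low tumour in all 3 Vegfa-high tumours, as were 3.33% of all features, with adjusted p-values from 0.0609 to 0.0653. Selection by small p favours genes whose groups are apart. The calls depended on the processing: Fli1, Rab3b and Tmem88 passed with the set of dye swaps as a block, at adjusted p-values of 0.0422, 0.0422 and 0.0404. Of the 12, 9 passed with quantile normalization, 12 with centred arrays, 11 with Cy3 arrays, 12 with array weights and 0 with Cy5 arrays. Among all features the calls were 27 of 18188, 90 of 18188, 85 of 18851, 333 of 18188 and 0 of 18897 in that order, and 18 of 18188 with the block. Without 1 tumour, 7 passed without Mdr2-KO 2, 3 without IkB-SR 4 and 1 without Mdr2-KO 1, and 0 without any other. The calls among all features were 31 of 18286, 16 of 18605 and 28 of 18268 without these 3 tumours. Fli1, an ETS factor of endothelial and blood cells, was 0.38, -0.17 and -0.14 in tumours 1, 5 and 7 and -1.51 to -0.88 in the Vegfa-low tumours, a difference of 1.17. Efnb2 (ephrin-B2, a ligand of arterial endothelium) had a difference of 1.70, Tmem88 (a Wnt signalling inhibitor) 1.52, Gp1bb (a platelet glycoprotein) 1.50 and Arap3 (a GTPase-activating protein) 1.19. Cd79b (of the B cell receptor) had 1.29, Cd55 (a complement inhibitor) 1.35, Srgn (the proteoglycan serglycin) 1.14 and Hlx (a homeobox factor) 1.06. The others were Impdh1 (guanine nucleotide synthesis) at 1.09, Armcx2 (an armadillo repeat protein) at 1.32 and Rab3b (a GTPase of secretory vesicles). Rab3b had the largest difference of the 12, 2.12, with values of 0.28 to 0.47 in the Vegfa-high and -2.31 to -0.72 in the Vegfa-low tumours, where Mdr2-KO tumour 2 was the lowest.

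On the lower side the adjusted p-values of the 12 genes were 0.137 to 0.443, and 7 of the 12 were below every Vegfa-low tumour, as were 1.12% of all features, with the same effect of the selection. Krt20 passed with array weights and Cat without Mdr2-KO 2, where 38 of 18188 and 2 of 18286 features passed as lower. Krt20, an epithelial keratin, had the largest difference, -3.37, with values of -3.39, -3.08 and -2.77 in Vegfa-high tumours 1, 5 and 7. The Vegfa-low tumours spread over -1.66 to 2.43, and Mdr2-KO tumour 2 lay at 0.06 among them. Cpne8 (a copine, -1.17), Igfbp2 (an IGF-binding protein, -1.11), Enpp2 (autotaxin, -1.15), Acad12 (an acyl-CoA dehydrogenase, -1.02), Mogat2 (monoacylglycerol acyltransferase, -1.50) and Smpdl3b (a phosphodiesterase, -1.95) were the other 6 without overlap. Acad12 was missing in tumour 1 and Mogat2 in tumour 7. Cat (catalase, with spots at -1.75 and -0.72) and Hpx (hemopexin) differed by -1.24 and -1.11, but in Mdr2-KO tumour 2 they were at 3.16 and 5.96, within or below the Vegfa-high range of 3.20 to 3.56 and 5.84 to 6.24. Their contrast against tumour 2 was 0.18 and 0.07. Scp2 (peroxisomal sterol carrier), Scd2 (a stearoyl-CoA desaturase) and Fgf13 complete the list with -1.06, -2.20 and -1.14. Scp2 was at 1.87 in Mdr2-KO tumour 2, within its Vegfa-high range of 1.18 to 2.33. Its contrast against tumour 2 was -0.20. Taken singly, the 2 Fgf13 spots gave only -0.11 (3 Vegfa-high and 3 Vegfa-low tumours) and -0.51 (1 and 6). The Fgf13 value of -1.14 thus mixes spots that were missing in different tumours.

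**Figure D4:**
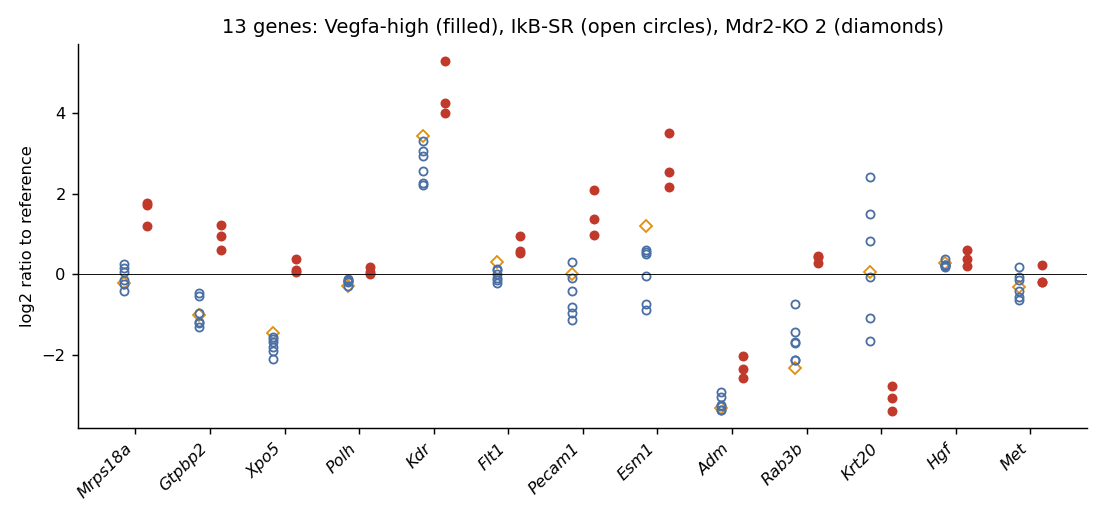
Log2 ratio to the reference RNA (vertical axis) of 13 genes named in the text (horizontal axis) in single tumours, with filled circles for the 3 Vegfa-high tumours, open circles for the 6 IkB-SR tumours and a diamond for Mdr2-KO tumour 2. Mrps18a, Gtpbp2 and Xpo5 passed the test. Polh, Kdr, Flt1, Pecam1, Esm1, Adm, Rab3b and Krt20 separate the groups without passing, and Hgf and Met overlap.

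The receptors of VEGF-A were measured at higher values in Vegfa-high tumours, without passing the test. Kdr was 5.29, 4.26 and 4.02 in tumours 1, 5 and 7, and 2.22 to 3.45, median 2.95, in the Vegfa-low tumours, where Mdr2-KO tumour 2 was the highest. The groups did not overlap, with a difference of 1.68 ± 0.34 (SE, limma adjusted p = 0.0965), and wild-type liver was at 3.88. Flt1 was 0.95, 0.58 and 0.54 against -0.22 to 0.32, a difference of 0.67 with an adjusted p of 0.0879. Its 2 spots disagreed, however, with differences of 1.28 and 0.06. Flt4, the receptor of VEGF-C and VEGF-D, and the coreceptor Nrp1 overlapped between the groups, with differences of 0.78 and 0.68 and adjusted p-values of 0.557 and 0.773. Of the other ligands, Vegfc differed by 0.56 (limma adjusted p = 0.416), Vegfb by 0.10 (0.87) and Vegfd by -0.18 (0.726), and all 3 overlapped between the groups. Nrp2 and Pgf were not tested.

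Endothelial genes were the list with the largest median. All 27 tested of 30 listed had a difference above 0, the median was 1.25 against 0.03 for all named genes, and 17 of the 27 were above every Vegfa-low tumour in all 3 Vegfa-high tumours, where 3.33% of all features were. None of the 27 passed the test. Under other processing, 12 passed with array weights (Kdr, Flt1, Pecam1, Egfl7 and Oit3 among them), 5 with Cy3 arrays and 4 with centred arrays. With the set of dye swaps as a block 1 passed (Egfl7, limma adjusted p = 0.0404), without Mdr2-KO 2 also 1 (Lyve1), and 0 with quantile normalization or Cy5 arrays. Among all features, 333 of 18188 passed with array weights, 85 of 18851 with Cy3 arrays and 90 of 18188 with centred arrays. The block gave 18 of 18188 and leaving out Mdr2-KO 2 gave 31 of 18286. Pecam1 (CD31, an adhesion molecule of endothelium) was 2.09, 0.99 and 1.39 in tumours 1, 5 and 7 against -1.13 to 0.32, a difference of 1.93 with an adjusted p of 0.0735. Egfl7, a secreted endothelial protein, and Oit3, a gene of liver sinusoidal endothelium, had differences of 1.21 and 1.79 with adjusted p-values of 0.0735 and 0.0808. The mean of the 23 endothelial genes with values in every tumour was 2.02 to 2.88 in the Vegfa-high tumours and 0.74 to 1.64 in the Vegfa-low tumours, with Mdr2-KO tumour 2 at the top of the low range and wild-type liver at 1.90. The wild-type value was thus above all Vegfa-low and below all Vegfa-high tumours. The median over the list was 0.66 against Mdr2-KO tumour 2, with 25 of 27 genes above 0. It was 1.75 within the set of close dye swaps and 1.03 within the other.

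Among 20 tested angiopoietin, Notch and tip cell genes, 17 were above 0 with a median of 0.62. Esm1 (endocan, a proteoglycan of tip cells) had the largest difference, 2.57, with values of 3.50, 2.55 and 2.17 in tumours 1, 5 and 7 and -0.88 to 1.21 in the Vegfa-low tumours, and its adjusted p was 0.0759. Adm (adrenomedullin, a vasodilator peptide also induced by hypoxia) had a difference of 0.89 with an adjusted p of 0.0609, and Plvap (of endothelial diaphragms) one of 1.01 with an adjusted p of 0.144. For each of these 3 the groups did not overlap. The 3 lists of vascular genes share members, Kdr, Flt1 and Plvap among them, and are not separate observations.

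The targets of hypoxia-inducible factors had a median close to that of all named genes. Of 30 tested, 20 were above 0 with a median of 0.09, and the list mean over 24 complete genes overlapped, at -2.43 to -2.20 in the Vegfa-high and -2.54 to -2.20 in the Vegfa-low tumours. Against Mdr2-KO tumour 2 the median was -0.09, with 9 of 29 genes above 0. Adm and Mxi1 (an antagonist of Myc) had its smallest p-values, with Mxi1 at 0.46 and an adjusted p of 0.179, followed by Ankrd37 at -0.35 and an adjusted p of 0.603. The 9 hypoxia factors and regulators had a median of 0.08, led by Epas1 (HIF-2 alpha, also of endothelium) at 0.44. Glycolysis genes had a median of 0.18 over 16. None of these genes passed the test.

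Hgf, the hepatocyte growth factor, and its receptor Met were close between the groups. Hgf was 0.60, 0.39 and 0.20 in tumours 1, 5 and 7 and 0.20 to 0.39 in the Vegfa-low tumours, a difference of 0.13 ± 0.09 (SE, limma adjusted p = 0.698). Met was -0.20, -0.20 and 0.23 against -0.64 to 0.18, a difference of 0.23 ± 0.18 (SE, limma adjusted p = 0.793). The median of the 9 growth factor genes tested, of 14 listed, was -0.01.

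Lists of other cell types also had medians away from 0, and none of their members passed the test. Macrophage and Kupffer cell genes had a median of 0.73, with 18 of 21 above 0. The leading ones were Folr2 (a folate receptor of resident macrophages, 1.57), Mrc1 (the mannose receptor, also of sinusoidal endothelium, 1.65) and Timd4 (a receptor of resident Kupffer cells, 1.41), with adjusted p-values of 0.0879, 0.0879 and 0.162. Taken singly, the 2 Timd4 spots gave 0.76 and 1.15, the second with values in only 3 of the 7 Vegfa-low tumours. The combined Timd4 value of 1.41 thus mixes different spots between tumours. In this list Mdr2-KO tumour 2 lay within the Vegfa-high range of list means, at 2.85 against 2.36 to 3.20, and the median against it was -0.06, with 7 of 21 genes above 0. The 5 tested neutrophil genes had medians of 0.68 and -0.16 in the same 2 contrasts. Cell cycle genes had a median of 0.56 with 27 of 28 above 0, and 0.82 with 26 of 27 above 0 against Mdr2-KO tumour 2, which had the lowest list mean of the 10 tumours. Mcm3 and Mcm4 of the replicative helicase and the kinase Cdk1 led with 0.69, 0.72 and 1.02 and adjusted p-values of 0.0887, 0.179 and 0.205. By set of dye swaps, the cell cycle median was 0.15 and 0.72.

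Hepatocyte genes had a median of -0.45 with 6 of 27 above 0, against 58.2% of all named genes above 0 and 41.8% below 0. Their median was 0.08, with 15 of 27 above 0, in the contrast with Mdr2-KO tumour 2. Apoa1, Alb and Trf led with -0.49, -0.88 and -0.99 and adjusted p-values of 0.425, 0.526 and 0.537. The list mean was 4.78 to 5.28 in the Vegfa-high and 4.96 to 5.78 in the Vegfa-low tumours, with overlap. Stellate cell and matrix genes had a median of 0.24, led by Acta2 (smooth muscle actin) at 0.95, Tagln at 0.98 and Fbn1 at 0.53 with adjusted p-values of 0.0887, 0.138 and 0.208. Of 8 B and plasma cell genes 7 were above 0 with a median of 0.22, led by Cd79b, Pou2af1 (1.47) and Ms4a1 (0.13). The 8 had a list mean apart between the groups, at -1.77 to -1.51 against -2.36 to -1.80. The gap was narrow, with Mdr2-KO tumour 2 at -1.80 and Vegfa-high tumour 1 at -1.77. Cholangiocyte genes had a median of -0.01 over 8 and T and NK cell genes one of 0.00 over 9. The part of these cell type genes in the vascular values was not tested.

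Canonical NF-kB targets, the genes nearest to the super-repressor of the study, had a median of 0.08 with 15 of 26 above 0. That median joins members that went both ways. At an unadjusted limma p under 0.05, 7 of the 26 were higher and 3 lower, against 7.79% and 1.92% of all features. The lowest difference, -1.56, was that of Nfkbia itself. Tnfaip3 (the inhibitor A20), Nfkb1 and Vcam1 led with 0.75, 0.39 and 0.65 and adjusted p-values of 0.299, 0.332 and 0.362, Tnfaip3 being missing in tumour 1. Against Mdr2-KO tumour 2 the median was -0.02. Control genes had a median of 0.11 over 11, unfolded protein response genes one of 0.01 over 17, and oncofetal and progenitor genes one of -0.11 over 13.

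**Figure D5:**
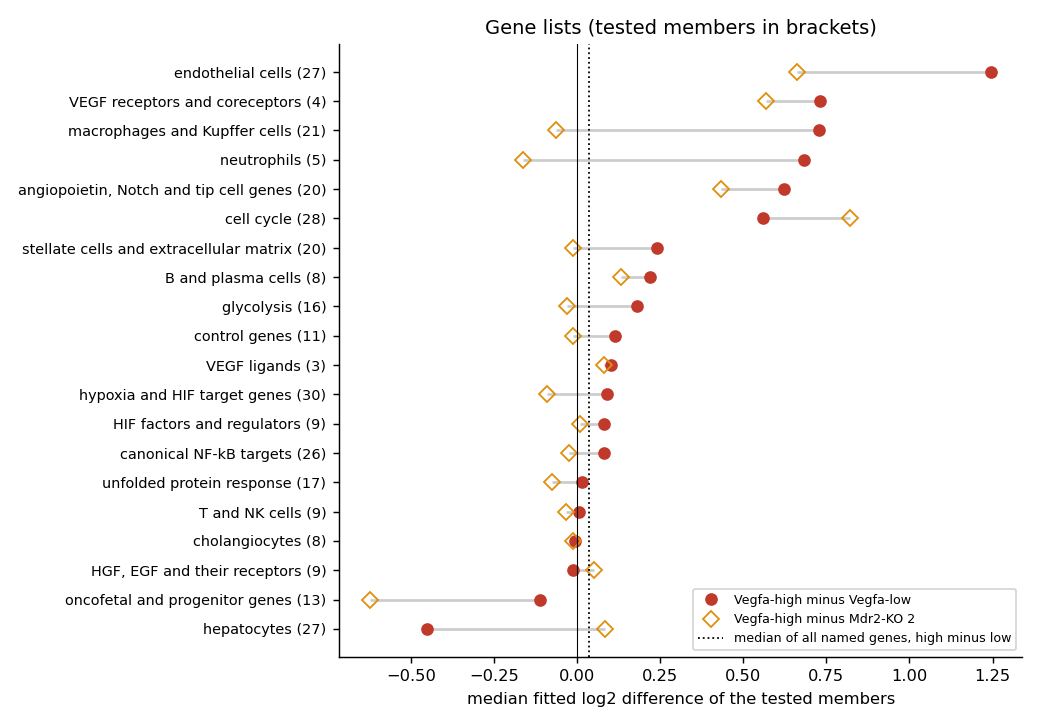
Median fitted log2 difference (horizontal axis) over the tested members of each gene list (vertical axis, number of members in brackets), for Vegfa-high minus Vegfa-low tumours (filled circles) and Vegfa-high minus Mdr2-KO tumour 2 (diamonds). Endothelial genes lie at 1.25 and 0.66 and cell cycle genes at 0.56 and 0.82, while macrophage genes lie at 0.73 and -0.06 and hepatocyte genes at -0.45 and 0.08.

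Within the Mdr2-KO genotype, the 3 Vegfa-high tumours were set against the 1 Vegfa-low tumour. The spread came from the Vegfa-high and the IkB-SR tumours only, since a group of 1 tumour has no spread of its own. Tumour 2 is thus assumed to vary like the other tumours. Of 17982 features 5 passed, none higher (0%) and 5 lower (0.0278%), and 2.79% had an unadjusted p under 0.05. The 4 named ones were Ggt1 (gamma-glutamyltransferase), Fmr1nb, Tmem45a and Muc1 (a mucin), and these were named after their values were seen. Ggt1 was at 2.01 in tumour 2 and between -2.26 and -1.12 in the 9 other tumours, so that tumour 2 alone stood apart. Xpo5 differed by 1.64 in this contrast with an adjusted p of 0.0876, and Igf2, an imprinted fetal growth factor, was at 4.58 in tumour 2 against -2.53 to 0.16 in the Vegfa-high tumours, with 1 IkB-SR tumour as high at 4.64.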

How the data were processed

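RNA of 10 liver carcinomas and 1 wild-type liver was measured on 2-colour arrays against a universal mouse reference RNA, on 2 arrays per sample with dyes swapped, per the labels. The authors deposited 1 log2 ratio per spot and array, with no header on how it was made: base 2 is assumed, and normalization and filters are unknown here. All arrays correlated positively (lowest r between any 2 arrays 0.765), so dye swaps were already turned one way, and Alb far above 0 fits sample over reference. Array medians were -0.31 to 0.0096, and 19576 to 25000 spots had a value; array number limits precision. Of 37632 spots, 20879 had 1 symbol in the platform annotation, 0 several and 16753 none, and 5005 symbols were updated through RefSeq GRCm38.p6 synonyms. Both arrays of a tumour were averaged to 1 replicate, then the spots of a symbol. Features with values in at least 2 Vegfa-high and 5 Vegfa-low tumours were tested with limma 3.58.1 (R 4.3.3) and Benjamini-Hochberg adjustment over all features; the code was tested on simulated data. Tumours are from individual mice, per the labels' design text.

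The members, gene lists and tests were chosen with earlier results of these data known. Named genes were the 20 nearest to Vegfa, up to 12 per direction beyond 5 Mb (by smallest p with a log2 difference of at least 1 where too few passed), all VEGF ligands and receptors, the 3 smallest p-values of the lists described beyond their median, and Abcb4, Nfkbia, Eif2s3y, Hgf and Met. Genes at the ends of runs were named after their values were seen. Alternatives were quantile or median centring, single dyes, other filters, spot medians, array weights, the dye-swap set as a block, and leaving out tumours.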

Additional observations from a re-analysis of the deposited data

Results flagged for a closer look

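Among 56 genes looked at, 2 had a Vegfa-low tumour far from the other 6 of its group, by the size of its gap relative to the range of the group. Chance flags about 1 in 20 such groups. Mad2l1bp, a neighbour of Vegfa, was at -0.056 in IkB-SR tumour 9 and between -0.87 and -0.52 in the other Vegfa-low tumours, while the lowest Vegfa-high value was 0.71. Smpdl3b was at 1.65 in the tumour labelled IkB-SR replicate 8 and between -1.88 and -0.46 in the others.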

How the results depend on the processing

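No paired analysis was possible because each tumour came from a separate mouse and has a replicate number of its own. Against 3 genes in the comparison of Vegfa-high with Vegfa-low tumours, there were 27 with quantile normalization, 90 with arrays centred on their median, 85 with Cy3-labelled tumour arrays, 333 with array weights and 18 with the set of dye swaps as a block. With Cy5-labelled arrays limma called 0, with 1062 features at an unadjusted p under 0.05. Without the 3 tumours with high Eif2s3y, chosen after seeing the data, it was 1 (Xpo5). Leaving out 1 tumour gave 1 to 31: 1 without Mdr2-KO 5 or IkB-SR 3, 6, 8 or 10, 7 without Mdr2-KO 7, 16 without IkB-SR 4, 28 without Mdr2-KO 1 and 31 without Mdr2-KO 2. The cause was not tested.

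Against 5 genes in the contrast with Mdr2-KO tumour 2, there were 10 with quantile normalization, 2 with Cy3 arrays, 17 with array weights, 1 with the block and 0 by limma without the high Eif2s3y tumours (650 at an unadjusted p under 0.05). Leaving out 1 tumour gave 1 (without Mdr2-KO 5) to 9 (without IkB-SR 4), with 2 without Mdr2-KO 1 or IkB-SR 8 or 9 and 3 without IkB-SR 3, 6 or 10. The median of genes elsewhere, 0.034, was -0.024 with quantile normalization, 0.075 with centred arrays, 0.12 with Cy3, 0.0033 with Cy5 and 0.044 with weights, and 0.024 to 0.048 with a tumour left out. The neighbourhood median, 0.52, was 0.11 to 0.73 with a tumour left out, 0.20 with weights and 0.27 over 10 Mb. The one against Mdr2-KO tumour 2, 0.33, was 0.03 to 0.49 and 0.09.

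Small differences changed sign. Nfkbie was 0.034 with centred arrays, 0.011 with Cy3 and -0.054 to 0.019 with a tumour left out. Vegfb was -0.10 with Cy5. Egln3 was 0.044 and Tfeb -0.035 with weights. With a tumour left out, Tfeb was -0.14 to 0.27, Abcb4 -0.040 to 0.57 and Ttbk1 -0.014 to 0.12.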

Other observations

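Runs of adjacent genes that stood apart in 1 tumour were also looked for on all chromosomes, as a description with no test. Medians over 11 neighbouring measured genes were taken along each chromosome, and stretches of at least 10 genes with a window median at least 0.8 above or below the Vegfa-low median were listed. There were 9 such stretches, all of them higher, of which 7 were in the Vegfa-high tumours and 2 in Vegfa-low tumours. Vegfa lay inside 2 of them, 1 in tumour 5 (Nfkbie to Ttbk1) and 1 in tumour 7 (Supt3 to A530064D06Rik).

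In Vegfa-high tumour 1, a stretch of 21 genes over 0.53 Mb of chromosome 11 (Tepsin to Mafg) had a median of 1.38 above the Vegfa-low median, a stretch of 13 genes over 0.45 Mb of chromosome 5 (Pilra to Stag3) had 1.32, and a stretch of 20 genes over 13.1 Mb of chromosome 3 (Car2 to Pld1) had 1.16. In the other 9 tumours the medians of these 3 stretches lay between -0.30 and 0.14. Tumour 5 had no further stretch. Tumour 7 had 2 further ones on chromosome 17, Ddr1 to H2-T23 with 13 genes and a median of 1.10 and Capn13 to Ltbp1 with 13 genes and a median of 1.07, each between -0.36 and 0.25 in the other tumours. The 2 stretches in Vegfa-low tumours were on chromosome 18, Svil to Wac in Mdr2-KO tumour 2 with a median of 1.52 and Mkx to Esco1 in IkB-SR tumour 4 with a median of 1.15. For Svil to Wac the other tumours spread widely, from -0.68 to 0.63, with IkB-SR tumour 4 at 0.63 and Vegfa-high tumour 1 at 0.53. For Mkx to Esco1 they lay between -0.42 and 0.24.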
